A study of Mus musculus with 8 samples.

Results

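The Ifi200 genes are the mouse members of the PYHIN family, which is also called the HIN-200 family. The 9 names chosen here were Ifi203, Ifi204, Ifi205, Ifi207, Ifi209, Ifi211, Ifi213, Mnda and Mndal, all of 1 cluster on chromosome 1, and Aim2, which lies beside the cluster, was left out of the choice. Mnda is a RefSeq synonym of Ifi211 and has no row of its own, so the 9 names stand for 8 distinct genes among the 50615 genes of the expected-count table. All 8 passed the filter on low counts, as did 17625 genes in all. The members were chosen by measured values, namely lower expected counts in Ncoa6-KO cells that were already known from these libraries, so the differences between genotypes are given for the 8 genes as a description, with no p-value for a single member, and nothing is read from counts of members called between genotypes.

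The libraries came from bone marrow-derived macrophages (BMDMs) of C57BL/6 mice, grown from marrow in M-CSF at 20 ng/ml for 6 days. NCOA6 is a nuclear receptor coactivator. Donors of the Ncoa6-KO cells carried Ncoa6 fl/fl together with LysM-Cre. Donors of the Ncoa6-sufficient cells, called WT in the sample labels, carried the floxed alleles without Cre, so all groups shared the floxed alleles but not the Cre. LysM-Cre is inserted in Lyz2 and acts in myeloid cells. Cells of either genotype stayed in medium alone or received LPS (100 ng/ml) for 4 h followed by a 2 h exposure to 200 µg/ml of monosodium urate (MSU) crystals. The 2 libraries of a group came from different mice, and whether medium and LPS + MSU libraries share mice is not given in the sources used here. No library had LPS or MSU alone, so the effects of the 2 agents cannot be told apart. Ages and sexes of these mice are not given in the sources used here.

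PYHIN proteins carry a pyrin domain, a HIN domain or both. HIN domains bind DNA, and pyrin domains join proteins to one another. Many genes of the family are induced by type I interferon, which macrophages release after LPS reaches Toll-like receptor 4, and several family members are studied as DNA sensors, as regulators of transcription or as regulators of inflammasomes. Type I interferon acts on its target genes largely through the interferon-stimulated response element (ISRE), a short motif in their promoters.

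The 8 libraries held 25281955 to 33673552 expected counts. Ncoa6, the targeted gene on chromosome 2, gave 2018 and 1633 counts in medium where it was intact, against 1128 and 708 in Ncoa6-KO cells. With LPS + MSU the counts were 936 and 852 against 431 and 376. In the edgeR quasi-likelihood test over all genes, Ncoa6 was lower in Ncoa6-KO BMDMs by a log2 fold change of -1.05 in medium (adjusted p = 0.00236) and of -1.18 with LPS + MSU (adjusted p = 0.00189). The counts are of the whole gene and do not resolve the floxed exon. Values are given below as normalized counts, which are counts scaled to a library of 29332189, and as normalized counts per kilobase of exon wherever genes are compared with each other.

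All 10 macrophage markers were measured in every group, and all 10 had a lower mean in Ncoa6-KO BMDMs in both conditions, with 4 of 10 passing the test in each (Fcgr1, Marco, Cd14 and Lyz2 in medium). Their summed normalized counts in medium were 463290 and 396890 in Ncoa6-sufficient BMDMs and 291800 and 253530 in Ncoa6-KO BMDMs. Without Lyz2, which carries the Cre, the sums of the other 9 were 191190 and 187000 against 164240 and 141530. With LPS + MSU these 9 summed to 324270 and 315300 against 276650 and 258110. T and NK cell markers summed to at most 4.16 normalized counts in a library, B cell markers to at most 50.3 and the 7 dendritic cell markers to at most 278. Stromal markers varied between libraries of 1 group, with 131 and 446 in Ncoa6-KO BMDMs in medium. The part of these shifts in the values below was not tested, and in bulk libraries fewer cells of a type and less RNA per cell cannot be told apart.

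The 8 genes span chr1:173566283-174031810 (GRCm38, GENCODE M21), a stretch of 465.5 kb with 16 annotated genes, of which 10 are protein-coding and 6 are pseudogenes. Ifi213 marks the left end and Ifi205 the right end. 7 of the 8 genes lie on the minus strand and Ifi209 lies on the plus strand. The annotated span of Mndal, chr1:173849126-173942491, covers all of Ifi211 and overlaps Ifi203 on the same strand, so counts of these 3 genes depend on how reads were assigned to transcripts.

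**Figure D1:**
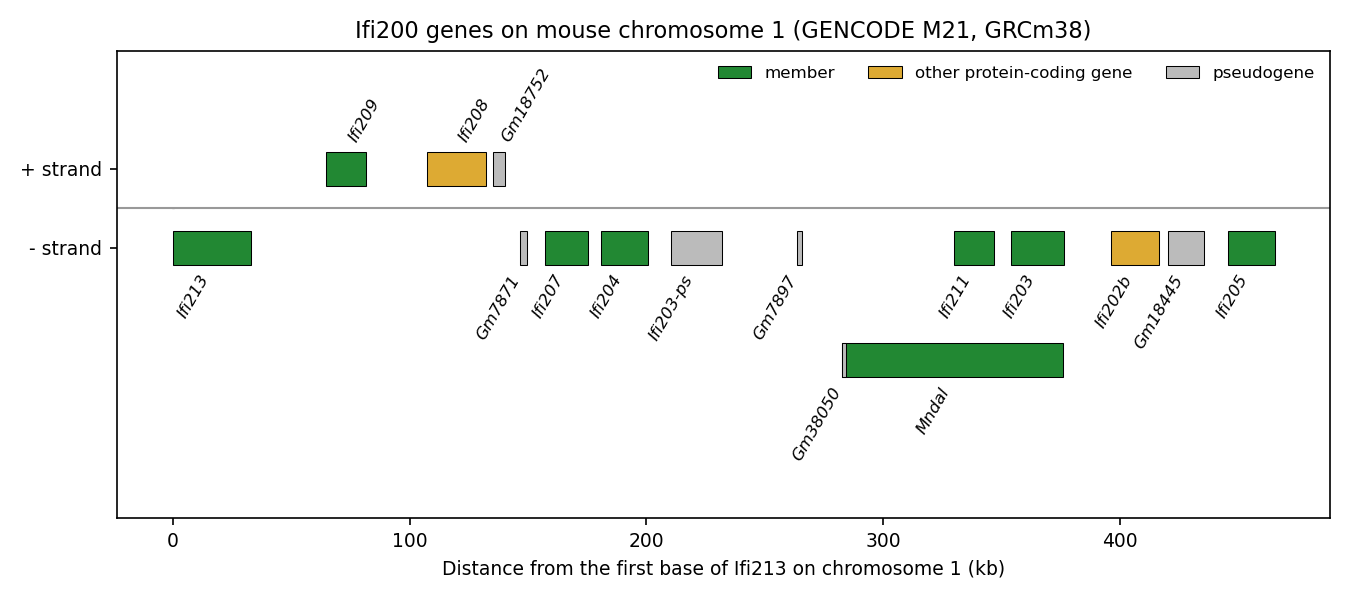
The annotated genes between Ifi213 and Ifi205, with distance from the first base of Ifi213 in kb on the x axis and strand on the y axis. Mndal is drawn on a lower line because its span covers Ifi211, and 7 of the 8 members (green) lie on the minus strand.

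The copies in the cluster are similar enough to share reads. Of the 100-base windows in the transcripts of Ifi211, 56.9% also occurred in transcripts of another gene, 37.2% in Ifi205 and 19.6% in Ifi204. The share was 16.9% for Ifi209, all with Ifi214, and 15.0% for Ifi205, all with Ifi211. It was 10.7% for Ifi204, 6.38% for Mndal, 3.30% for Ifi213, 2.84% for Ifi203 and 0.790% for Ifi207. The estimated counts were not whole numbers (within 0.01) in all 8 libraries for 6 of the 8 genes, against 13.4% of all genes tested, which shows that reads were split between genes. By share of windows, the level of Ifi211 is therefore the least certain, and the counts of Aim2, which shared no window, were whole in every library.

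The promoters are shown because most members carry the letters of an ISRE close to the start. RefSeq promoter windows, which run from 250 bases before to 50 bases after a start, were at hand for 7 of the 8 genes, in 9 windows, and Ifi204 had none. The letters GAAANNGAA, searched on both strands, stood in 7 of the 9 windows and in 6 of the 7 genes. Among all 32851 windows the share was 8.56%. In the stretches below, from RefSeq on GRCm38.p6 and written 5′ to 3′ along each gene's strand, capitals mark the match.
Ifi213, chr1:173599317-173599365, minus strand: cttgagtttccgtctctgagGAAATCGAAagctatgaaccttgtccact
Ifi207, chr1:173741822-173741870, minus strand: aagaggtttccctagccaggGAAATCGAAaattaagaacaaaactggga
Mndal, chr1:173880195-173880243, minus strand: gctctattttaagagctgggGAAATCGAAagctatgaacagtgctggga
Ifi211, chr1:173913055-173913103, minus strand: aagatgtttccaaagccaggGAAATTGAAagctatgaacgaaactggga
Ifi205, chr1:174031861-174031909, minus strand: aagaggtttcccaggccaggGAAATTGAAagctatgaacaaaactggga
Ifi206, a PYHIN gene outside the chosen names, chr1:173491330-173491378, minus strand: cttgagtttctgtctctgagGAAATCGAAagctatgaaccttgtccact

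The matches fell into 2 spellings, with GAAATTGAA in Ifi211 and Ifi205 and GAAATCGAA in the other genes printed. The stretch of Ifi203, at its second start, had the same 49 bases as that of Mndal, and the stretch of Ifi208 had the same 49 bases as that of Ifi213. The stretches of Ifi211 and Ifi205 differed at 4 of 49 bases, those of Ifi207 and Ifi205 at 6 and those of Ifi213 and Ifi205 at 23. Counted from the start base as 0, the first base of the match lay at -73 in Ifi213, -41 in Ifi207, -36 in Mndal, -37 in Ifi211, -35 in Ifi203 and -134 in Ifi205. A further match on the opposite strand stood at the second start of Mndal and after the start of Ifi205. The window of Ifi209 and the first window of Ifi203 held no match.

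Other motifs were rarer in these windows. No member window held the GAS letters TTCNNNGAA, found in 8.30% of all windows, or the NF-kB letters GGGANTTTC, found in 1.11%. The PU.1 core GAGGAA, found in 28.3% of all windows, stood in 1 of the 7 genes, Ifi213, where it overlaps the ISRE match. Among the other PYHIN genes, 3 of 5 windows held the ISRE letters, those of Ifi206, Ifi208 and Ifi214. The window of Aim2 held no ISRE match and held the NF-kB letters. The motif matches are descriptions of letters and not of bound sites.

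**Figure D2:**
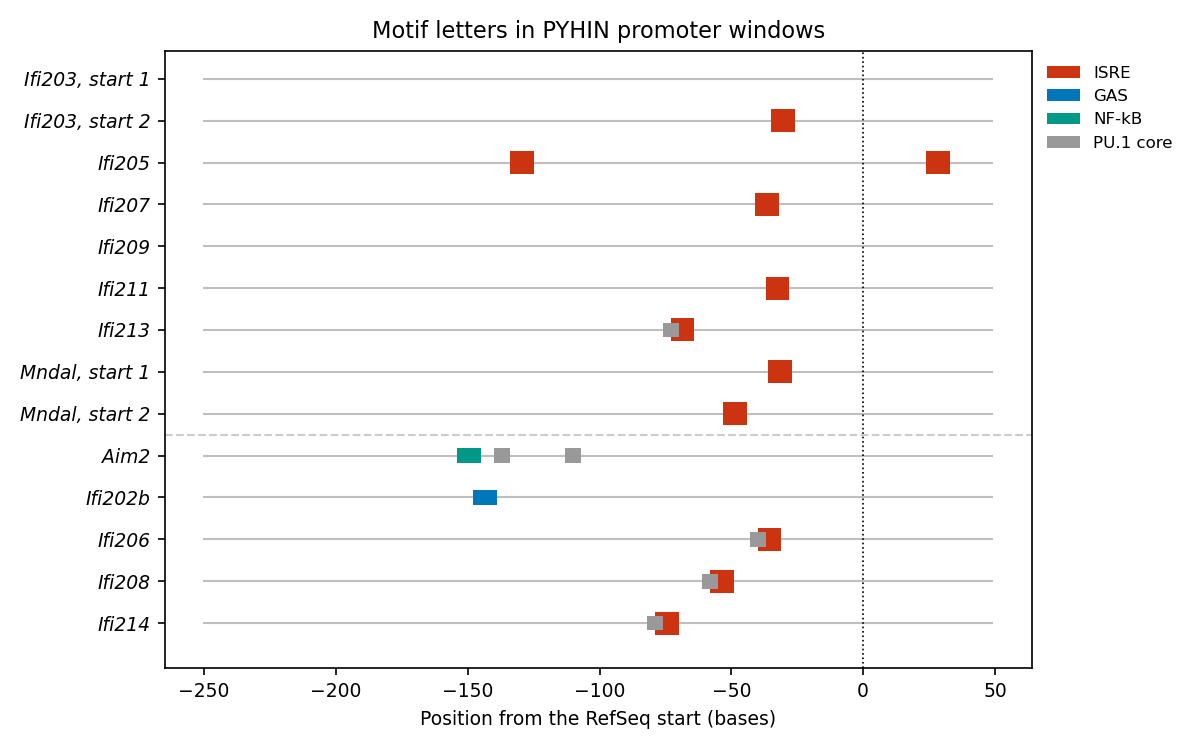
Position of motif letters in promoter windows of PYHIN genes, in bases from the RefSeq start (x axis), with 1 line for each window and the members above the dashed line. ISRE matches (red) lie before the start in 6 of the 7 members with a window, and Aim2 has none.

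In medium alone, the level per kilobase differed widely among the 8 genes. Ifi207, whose product is described as a regulator of transcription, stood highest in Ncoa6-sufficient BMDMs, with 2169 and 2146 normalized counts per kilobase. Ifi204, the best studied mouse member and a DNA sensor, followed with 1279 and 1085. Ifi211 had 1215 and 852 per kilobase and Mndal 921 and 932, and neither these 2 genes nor Ifi204 and Ifi211 were separated beyond the spread of the 2 libraries. Ifi203 had 446 and 448 per kilobase and Ifi209 had 334 and 242. Ifi205 and Ifi213 were near the bottom, at 41.0 and 25.1 for Ifi205 and at 24.4 and 16.6 for Ifi213. The order at rest thus spanned about 2 orders of magnitude, with Ifi207 alone giving 33.7% and 36.4% of the summed counts of the 8 genes.

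With LPS + MSU the order changed. In Ncoa6-sufficient BMDMs, Ifi211 stood highest at 20760 and 18170 normalized counts per kilobase, with the caution on its shared reads. Ifi204 followed at 13930 and 11640 and Mndal at 10020 and 10820. Ifi207, Ifi205 and Ifi209 overlapped, with means of 8116, 7951 and 7914 per kilobase. Ifi203 had a mean of 5462 and Ifi213, the lowest, of 1052. In Ncoa6-KO BMDMs the order of the means was the same, from Ifi211 at 15300 per kilobase down to Ifi213 at 662. Ifi207 then gave 10.9% to 12.3% of the summed counts in the 4 stimulated libraries, and Ifi205 gave 12.2% to 14.2% after at most 0.777% in medium.

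**Figure D3:**
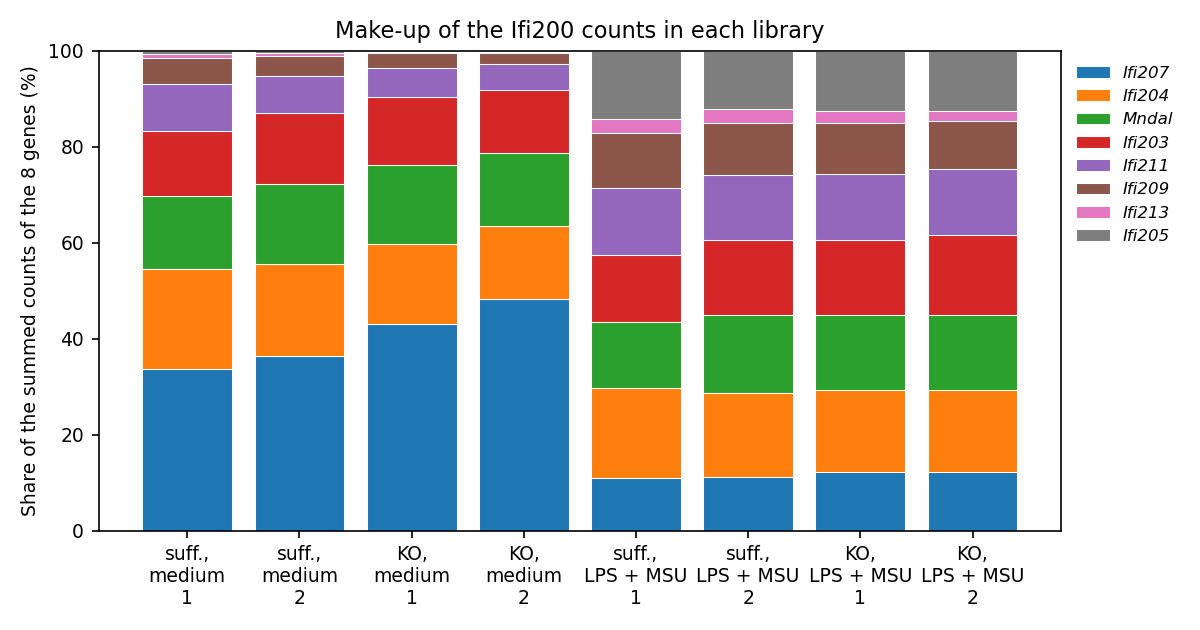
Share of each gene in the summed expected counts of the 8 Ifi200 genes (y axis, percent) in each of the 8 libraries (x axis, suff. for Ncoa6-sufficient). Ifi207 gives 33.7% to 48.4% in medium and 10.9% to 12.3% with LPS + MSU, while Ifi205 is visible only with LPS + MSU.

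All 8 genes rose with LPS + MSU in both genotypes. The edgeR test called 8 of 8 higher in Ncoa6-sufficient BMDMs, where 24.7% of all genes tested were called higher, and 8 of 8 in Ncoa6-KO BMDMs, where the share was 25.2%. The median log2 fold change of the 8 genes was 3.92 in Ncoa6-sufficient BMDMs and reached 4.60 in Ncoa6-KO BMDMs, against -0.12 and -0.07 over all genes. Summed, the 8 genes took 0.0923% and 0.0858% of a library in Ncoa6-sufficient BMDMs in medium and 0.687% and 0.643% with LPS + MSU. In Ncoa6-KO BMDMs they took 0.0659% and 0.0509% in medium and 0.570% and 0.531% with LPS + MSU. The libraries in these comparisons also enter the comparisons between genotypes.

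Ifi205, whose product has a pyrin domain and has been studied in macrophage inflammasome regulation, had the largest rise. Its normalized counts in Ncoa6-sufficient BMDMs were 171 and 105 in medium and 37288 and 29132 with LPS + MSU. In Ncoa6-KO BMDMs they were 28.5 and 32.5 in medium and 26015 and 23534 with LPS + MSU. The gene was thus near the bottom of the 8 at rest and in the middle of their order after stimulation. The rise was 239-fold in Ncoa6-sufficient BMDMs, a log2 fold change of 7.90 ± 0.242 (SE; edgeR adjusted p = 9.66e-10). In Ncoa6-KO BMDMs it was 814-fold, 9.67 ± 0.273 (edgeR adjusted p = 5.89e-10). Both folds rest on 37.4 to 228 expected counts of Ifi205 in medium, beside 731 to 2890 of Ifi211, with which it shares windows. How far the split of shared reads moved the Ifi205 values was not tested.

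Ifi213 and Ifi209 came next. Ifi213 had 167 and 114 normalized counts in Ncoa6-sufficient against 50.8 and 15.8 in Ncoa6-KO BMDMs in medium, and 7775 and 6610 against 5090 and 3965 with LPS + MSU. It was the least abundant member after stimulation. Its log2 fold change with LPS + MSU was 5.67 ± 0.290 in Ncoa6-sufficient BMDMs (edgeR adjusted p = 2.74e-08) and 7.02 ± 0.331 in Ncoa6-KO BMDMs (edgeR adjusted p = 1.58e-08). Ifi209, for which RefSeq gives the synonym Pyhin1, had 1184 and 859 against 476 and 270 in medium, and 30025 and 26115 against 21954 and 18917 with LPS + MSU. Its log2 fold changes with LPS + MSU were 4.78 ± 0.254 and 5.77 ± 0.269 (edgeR adjusted p = 3.65e-08 and 1.46e-08). For both genes the 2 Ncoa6-KO libraries lay below the 2 Ncoa6-sufficient libraries in each condition.

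Ifi204 and Ifi211 were intermediate. Ifi204 had 4556 and 3862 normalized counts in Ncoa6-sufficient against 2568 and 1755 in Ncoa6-KO BMDMs in medium. With LPS + MSU it had 49605 and 41439 against 35535 and 31953, the highest total of the 8 genes in both genotypes before length is considered. Ifi211, which carries the synonym Mnda and shares reads with Ifi205 and Ifi204, had 2169 and 1522 against 936 and 642 in medium. With LPS + MSU it had 37056 and 32434 against 28802 and 25806. In neither gene did the genotypes overlap. The log2 fold changes with LPS + MSU were 3.44 ± 0.190 and 3.96 ± 0.195 for Ifi204 (edgeR adjusted p = 4.96e-08 and 2.16e-08) and 4.23 ± 0.217 and 5.11 ± 0.227 for Ifi211 (edgeR adjusted p = 2.83e-08 and 1.03e-08), Ncoa6-sufficient first.

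Ifi203 and Mndal had nearly equal values in the 2 Ncoa6-sufficient libraries. Ifi203 had 2989 and 3003 normalized counts there in medium, against 2187 and 1518 in Ncoa6-KO BMDMs, and 36296 and 36956 against 32380 and 31127 with LPS + MSU. Mndal had 3341 and 3381 against 2533 and 1758 in medium, and 36366 and 39238 against 32255 and 29697 with LPS + MSU. Their log2 fold changes with LPS + MSU in Ncoa6-sufficient BMDMs, 3.61 ± 0.164 and 3.49 ± 0.167, differed from that of Ifi204 by less than its SE (edgeR adjusted p = 1.18e-08 and 1.68e-08). In Ncoa6-KO BMDMs they were 4.10 ± 0.168 and 3.85 ± 0.170 (edgeR adjusted p = 5.69e-09 and 9.88e-09).

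Ifi207 moved least in both comparisons. Its normalized counts in medium were 7423 and 7344 in Ncoa6-sufficient against 6648 and 5613 in Ncoa6-KO BMDMs. After LPS + MSU they were 28649 and 26899 against 25411 and 22980. The most abundant member at rest was therefore the one with the smallest rise, 3.76-fold in Ncoa6-sufficient BMDMs (log2 fold change 1.91 ± 0.119, edgeR adjusted p = 1.24e-07) and 3.95-fold in Ncoa6-KO BMDMs (1.98 ± 0.119, edgeR adjusted p = 1.01e-07).

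**Figure D4:**
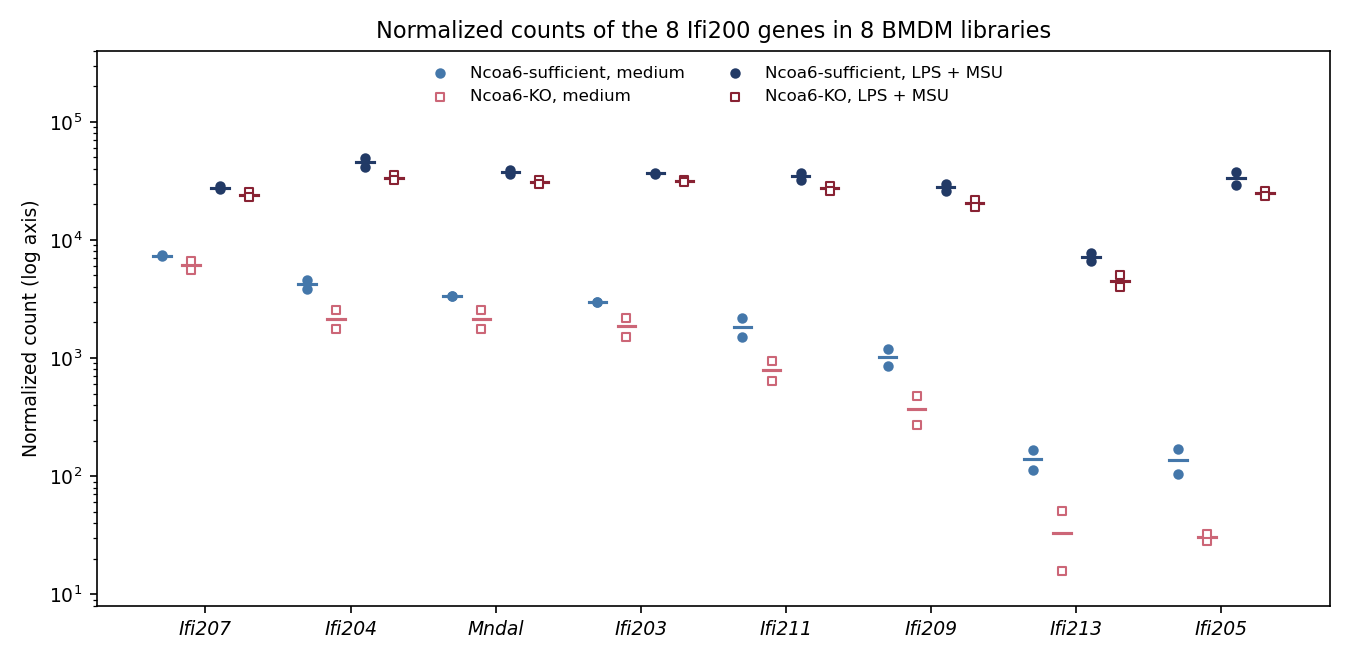
Normalized counts (log axis) of the 8 Ifi200 genes, ordered by their level in Ncoa6-sufficient BMDMs in medium, with 1 point for each library and a bar at the mean of 2. The values lie between 15.8 and 7423 in medium and, apart from Ifi213, between 18917 and 49605 with LPS + MSU, and Ncoa6-KO libraries (open squares) lie below Ncoa6-sufficient ones in each pair of groups.

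In medium alone, every member had both Ncoa6-KO libraries below both Ncoa6-sufficient libraries, a pattern seen for 24.5% of all genes tested. The mean in Ncoa6-KO BMDMs was 22.1% of that in Ncoa6-sufficient BMDMs for Ifi205, 23.8% for Ifi213, 36.5% for Ifi209, 42.7% for Ifi211, 51.4% for Ifi204, 61.8% for Ifi203, 63.8% for Mndal and 83.0% for Ifi207. As log2 fold changes with SE these were -2.19 ± 0.270 for Ifi205, -2.01 ± 0.357 for Ifi213 and -1.45 ± 0.233 for Ifi209. They were -1.22 ± 0.198 for Ifi211, -0.96 ± 0.176 for Ifi204, -0.69 ± 0.150 for Ifi203, -0.65 ± 0.154 for Mndal and -0.27 ± 0.115 for Ifi207. The edgeR call, which covers 1.3% of all genes in this direction, took in 6 of the 8 genes, all but Ifi207 and Mndal. The median was -1.09, against -0.03 over all genes. Since the members were chosen with lower Ncoa6-KO values in view, nothing is read from these counts, nor from those with LPS + MSU and for the difference in rise.

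The second Ncoa6-KO library in medium was the lowest of the 8 libraries for 7 genes, with Ifi205 as the exception. Without it, 2 of the 8 genes (Ifi205 and Ifi209) were called, the median was -0.85 and 103 of all genes were called in either direction, against 331 with every library. The log2 fold change was then -0.45 for Ifi203, -0.41 for Mndal and -0.15 for Ifi207. Without the first Ncoa6-KO library in medium 7 members and 351 of all genes were called, the median was -1.39 and Ifi213 had -3.14. Without the first Ncoa6-sufficient library in medium 1 member, Ifi205, and 22 of all genes were called, and without the second 3 members (Ifi205, Ifi209 and Ifi211) and 81 of all genes. Summed into 1 feature, the 8 genes had a log2 fold change of -0.64 ± 0.154. The sum leaves aside how reads were split among the 8 genes and is weighted towards Ifi207. Splits with copies outside the 8, such as that between Ifi209 and Ifi214, remain in it.

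With LPS + MSU the members were again lower in both Ncoa6-KO libraries than in both Ncoa6-sufficient libraries, 8 of 8 against 22.7% of all genes tested. The differences were smaller, and the mean in Ncoa6-KO BMDMs was 62.9% to 87.1% of that in Ncoa6-sufficient BMDMs. The log2 fold change was -0.67 ± 0.228 for Ifi213, -0.46 ± 0.216 for Ifi209, -0.43 ± 0.173 for Ifi204, -0.42 ± 0.174 for Ifi205 and -0.35 ± 0.190 for Ifi211. It was -0.29 ± 0.151 for Mndal, -0.21 ± 0.147 for Ifi203 and -0.20 ± 0.115 for Ifi207. None of the 8 was called by edgeR, where 1.63% of all genes were called lower. Of the 8, 3 were at an unadjusted p under 0.05 in edgeR, as were 3062 of all 17625 genes tested. DESeq2 and limma-voom also called none, while edgeR without the filter on low counts called 4 (Ifi204, Ifi205, Ifi209 and Ifi213) and 1611 of 24645 genes in either direction, against 632 of 17625 with it. With a replicate block edgeR called the same 4 members and 1532 of all genes. The median in the main fit was -0.39, against 0.00 over all genes.

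The rise with LPS + MSU was larger in Ncoa6-KO BMDMs for each of the 8 genes, which restates that the genotypes lay closer together after stimulation. The difference of the 2 log2 fold changes was 1.77 ± 0.324 for Ifi205, 1.35 ± 0.429 for Ifi213, 0.99 ± 0.316 for Ifi209, 0.88 ± 0.273 for Ifi211, 0.53 ± 0.246 for Ifi204, 0.49 ± 0.210 for Ifi203, 0.36 ± 0.216 for Mndal and 0.07 ± 0.163 for Ifi207. edgeR called none of the 8 and 0% of all genes, with 5 of the 8 at an unadjusted p under 0.05 and 1045 of all genes. DESeq2 called 1 of the 8, Ifi205, and 43 of all genes. With a replicate block edgeR called 4 of the 8 and 86 of all genes. With the block within genotype it called 6 of the 8 and 444 of all genes. For Ifi207 the sign turned negative, to between -0.060 and -0.025, in 3 fits that each left out 1 library.

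**Figure D5:**
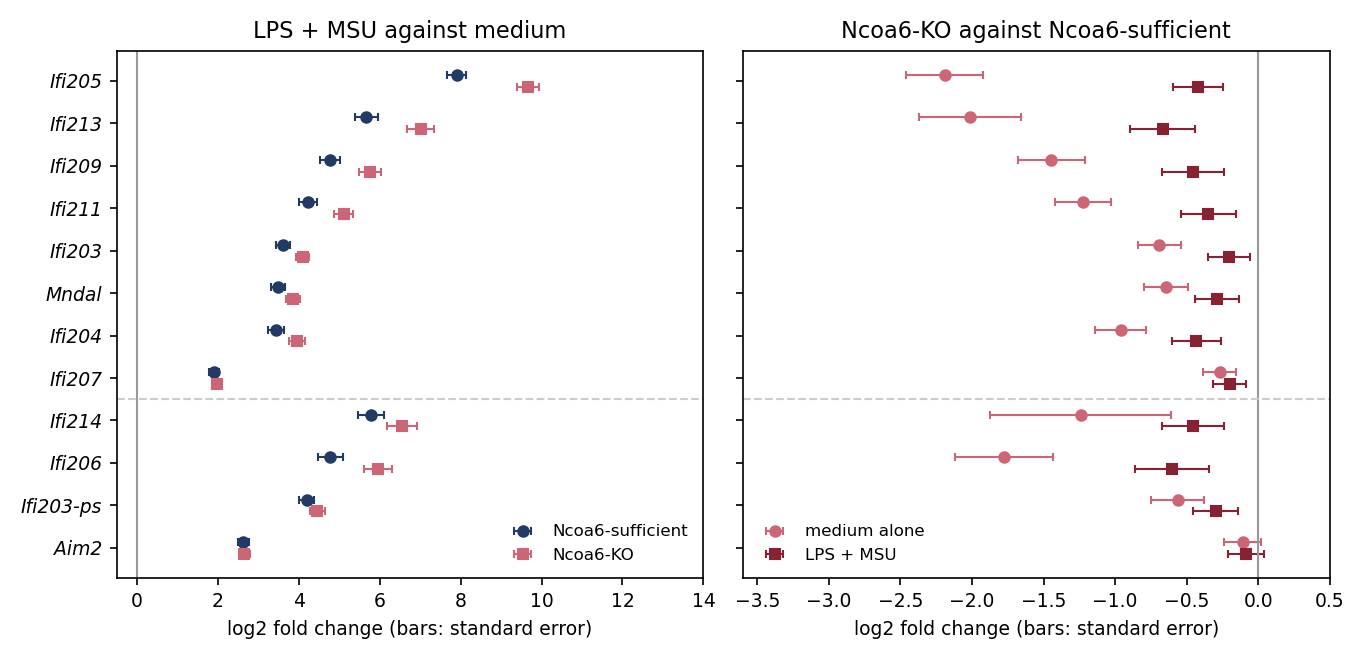
Log2 fold change with its SE (x axes) of LPS + MSU against medium in each genotype (left) and of Ncoa6-KO against Ncoa6-sufficient BMDMs in each condition (right), for the 8 members above the dashed line and 4 other PYHIN genes below it. On the left the members run from 7.90 (Ifi205) to 1.91 (Ifi207) in Ncoa6-sufficient BMDMs, while the Ncoa6-KO values run from 9.67 to 1.98, and on the right the values in medium run from -2.19 (Ifi205) to -0.27 (Ifi207) and lie below those with LPS + MSU.

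The 6 other PYHIN genes of the region were not part of the choice. Aim2, the receptor of the AIM2 inflammasome, had 1064 and 1283 normalized counts in Ncoa6-sufficient against 1156 and 1017 in Ncoa6-KO BMDMs in medium, and 6518 and 8063 against 6772 and 6974 with LPS + MSU. The genotypes overlapped in both conditions. Its log2 fold change between genotypes was -0.11 ± 0.131 in medium (edgeR adjusted p = 0.820) and -0.09 ± 0.127 with LPS + MSU (edgeR adjusted p = 0.796), and these values do not show that the genotypes are equal. Aim2 rose with LPS + MSU by 2.64 ± 0.136 in Ncoa6-sufficient BMDMs and by 2.66 ± 0.136 in Ncoa6-KO BMDMs (edgeR adjusted p = 2.92e-08 and 2.76e-08). Whether it differed from the members was not tested.

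Ifi206, a close copy to the left of the cluster, had 298 and 189 normalized counts in Ncoa6-sufficient against 100.1 and 38.6 in Ncoa6-KO BMDMs in medium, and 7814 and 5678 against 4800 and 4076 with LPS + MSU. The genotypes did not overlap in either condition. It was lower in Ncoa6-KO BMDMs in medium by a log2 fold change of -1.77 ± 0.343 (edgeR adjusted p = 0.0299), a call made in 12 of 17 fits. With LPS + MSU the value was -0.60 ± 0.257 (edgeR adjusted p = 0.255). Ifi206 rose with LPS + MSU by 4.78 ± 0.309 and 5.95 ± 0.344 (edgeR adjusted p = 1.70e-07 and 7.31e-08).

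The remaining PYHIN genes were less abundant than Aim2 in medium. Ifi203-ps, a pseudogene, had 391, 460, 382 and 225 counts in the 4 libraries in medium and 3525 to 5133 with LPS + MSU, and Ifi214 had 2.15 to 14.1 and then 220 to 407. Ifi208 had 0 or 1 count in medium and 47.7 to 89.5 with LPS + MSU. Ifi202b, a gene of the cluster known for its variation among mouse strains, had 0 counts in all 4 libraries in medium and 3 to 5 with LPS + MSU. Ifi203-ps and Ifi214 were called higher with LPS + MSU in both genotypes (largest edgeR adjusted p = 6.41e-08, for Ifi214 in Ncoa6-KO BMDMs). Ifi208 and Ifi202b passed the filter on low counts only through the stimulated libraries, so no call and no fold is given for them. Of the other pseudogenes in the cluster, Gm18445 had 0 to 9 counts in medium and 65.0 to 89.1 with LPS + MSU, and Gm7871, Gm7897, Gm18752 and Gm38050 had at most 3.

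Of the 5 tested protein-coding genes nearest to the cluster on each side, Ifi206 was the only one that edgeR called between genotypes in medium, and with LPS + MSU edgeR called none, with 1 of the 10 at an unadjusted p under 0.05. Fh1, the farthest of the 10 and a mitochondrial enzyme gene, had 1154 to 1280 normalized counts in medium and 921 to 1083 with LPS + MSU.

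Interferon-stimulated genes on other chromosomes gave a frame for the cluster. Of 38 such genes tested, 25 were called lower in Ncoa6-KO BMDMs in medium, none higher, and all 38 had a negative log2 fold change with a median of -0.99, beside -1.09 for the 8 members. Without the first Ncoa6-sufficient library in medium none of the 38 was called, with 35 at an unadjusted p under 0.05, without the second 5 were, and without the second Ncoa6-KO library in medium 6 were. With LPS + MSU, edgeR, DESeq2 and limma-voom called none of the 38, of which 3 were at an unadjusted p under 0.05 in edgeR, and the median was -0.24, beside -0.39 for the members. All 38 rose with LPS + MSU in both genotypes, with medians of 4.26 and 4.94, beside 3.92 and 4.60 for the members. No test compared the lists, whose genes were set with earlier results in view, so the values of the cluster are given beside these and not set apart from them. Among the named genes, Oasl1, of the oligoadenylate synthetase-like family, had 192 and 142 normalized counts in medium against 70.2 and 42.1 in Ncoa6-KO BMDMs (log2 fold change -1.55 ± 0.233, edgeR adjusted p = 0.00985), and Ifi44 had -1.70 ± 0.369 (edgeR adjusted p = 0.0464). Gbp5, a guanylate-binding protein gene, rose most with LPS + MSU, by 8.30 ± 0.247 and 9.53 ± 0.265 (edgeR adjusted p = 8.96e-10 and 5.36e-10). Iigp1, an immunity-related GTPase gene, came second in both genotypes, at 9.09 ± 0.426 in Ncoa6-KO BMDMs.

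Of 16 genes of interferon signalling, which run from ligands and receptors to transcription factors, 3 were called lower in Ncoa6-KO BMDMs in medium, Irf7, Usp18 and Stat2, and without the first Ncoa6-sufficient library in medium none was. With LPS + MSU edgeR and limma-voom called none and DESeq2 called 1, with 5 at an unadjusted p under 0.05 in edgeR. Irf7, a transcription factor of the interferon response, had 2857 and 2281 normalized counts against 1101 and 680 in medium (log2 fold change -1.53 ± 0.201, edgeR adjusted p = 0.00568). Usp18, which damps signalling at the interferon receptor, had 710 and 642 against 425 and 298 (-0.90 ± 0.166, edgeR adjusted p = 0.0250). The list median was -0.26 in medium. With LPS + MSU, 14 of 16 were called higher and 2 lower in both genotypes, and the 2 were Ifngr1, a receptor chain for interferon gamma, and Irf3. Ifnb1, the gene of interferon beta, had 0.751, 0.860, 1.39 and 0.878 normalized counts in medium and 334, 253, 204 and 157 with LPS + MSU, with Ncoa6-sufficient libraries first in each condition. It is among the 14 called higher but passed the filter on low counts only through the stimulated libraries, so nothing is read from that call. The 2 Ncoa6-KO libraries were the lower ones for Ifnb1 after stimulation, at a log2 fold change of -0.70 ± 0.198 that was not called (edgeR adjusted p = 0.0867).

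Of 14 genes of DNA sensing, Aim2 among them, 2 were called lower in Ncoa6-KO BMDMs in medium, and none without the first Ncoa6-sufficient library in medium. Zbp1, a sensor of Z-form nucleic acid, had 516 and 324 normalized counts against 144 and 54.4 (log2 fold change -2.05 ± 0.344, edgeR adjusted p = 0.0178), and Trex1, a DNA exonuclease, had 1621 and 1263 against 836 and 539 (-1.06 ± 0.185, edgeR adjusted p = 0.0209). With LPS + MSU the 1 called gene was Tmem173, which encodes STING, at -1.11 ± 0.250 (edgeR adjusted p = 0.0367), and limma-voom called none. With LPS + MSU against medium, 10 of the 14 rose in each genotype, while Dnase2a and Irf3 fell in both and Pycard fell in Ncoa6-KO BMDMs.

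Genes outside the family that followed the members most closely over the 8 libraries were Znfx1, Isg20, Gbp9, Phf11d and Trim30a, by Pearson's correlation with the mean standardized log2 level of the 8 members. Znfx1 had r = 0.9997, and 478 of the 11207 genes compared had r of at least 0.99, which describes the split between medium and LPS + MSU that these libraries share. Isg20, an exonuclease gene, had 91.6 and 73.1 normalized counts in Ncoa6-sufficient against 43.1 and 24.6 in Ncoa6-KO BMDMs in medium, and 5574 and 4629 against 4207 and 3207 with LPS + MSU. No library of one genotype overlapped those of the other within a condition. Lower Ncoa6-KO values without overlap were seen for 24.5% of all genes tested in medium and for 22.7% with LPS + MSU. Isg20 was picked for its likeness to the members over these same libraries, so nothing is read from this pattern.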

How the data were processed

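The authors aligned paired-end reads of stranded mRNA libraries to GRCm38 with STAR (version 2.7.3a) and deposited RSEM (version 1.3.3) expected counts per gene, per the submitters' processing notes. RSEM divides reads that fit several genes among them. The expected counts were rounded to whole numbers, only genes whose rounded counts summed to at least 10 across libraries were kept, and these 17625 genes were fitted in edgeR (version 4.0.16, R 4.3.3) with TMM scaling, a model of 4 group means (2 libraries each, 4 residual degrees of freedom) and the quasi-likelihood test. Called means a Benjamini-Hochberg adjusted p under 0.05 over all genes tested. The median biological coefficient of variation was 0.114. With 2 libraries against 2, an exact permutation test cannot give a p under 0.333, so p-values rest on the spread shared over genes.

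Log2 fold changes and SE came from the same fit, and ± without another word is an SE. Gene positions came from GENCODE M21, promoter windows and synonyms from RefSeq. The members, gene lists and tests were chosen with earlier results of these data known. The named genes were the members, Ncoa6, the other PYHIN genes, the genes inside the cluster, the 5 nearest tested protein-coding genes on each side, the 2 largest called changes in each direction of 3 lists (mean normalized count of 50 or more), and the 5 genes most like the members. Isg20 was picked among these for fuller description after its values were seen, and some of these genes are not reported here. Alternatives were DESeq2 (version 1.42.0), limma-voom (version 3.58.1), other size factors, filters and groupings, a replicate block, summed copies and leaving out each library. On counts simulated from these libraries, the test was checked before use. The study's human libraries were not analysed here.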

Additional observations from a re-analysis of the deposited data

How the results depend on the processing

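The rise with LPS + MSU kept its direction and its call for all 8 members in both genotypes under every alternative run. The calls between genotypes depended on the libraries and on the fit, and the cause was not tested. In medium, 6 members were called, and 4 to 7 under the alternatives that kept all libraries of the comparison. Leaving out 1 library gave 1 to 7 calls, with 1 without the first and 3 without the second Ncoa6-sufficient library in medium, and 2 without the second Ncoa6-KO library in medium. With LPS + MSU, none was called, but 4 were without the filter on low counts, along with 1611 of all genes. On leaving out 1 library the median log2 fold change of the members with LPS + MSU ran from -0.51 to -0.28. For the difference between genotypes in the rise, none was called, but DESeq2 called 1 and the fit without the filter 4, along with 43 and 269 of all genes. Every member stayed lower in Ncoa6-KO BMDMs in both conditions under every alternative. The difference in rise of Ifi207, which ranged from -0.060 to 0.195 on leaving out 1 library, turned negative 3 times. It was -0.025 without the stimulated Ncoa6-sufficient library 2, -0.060 without the stimulated Ncoa6-KO library 1 and -0.048 without Ncoa6-KO library 2 in medium.

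The sources used here tie no replicate number in the labels to a mouse or a day. Deviations from the group means of libraries with the same number correlated at 0.0418 to 0.353 over 11219 genes. The highest values joined medium with LPS + MSU inside 1 genotype, at 0.353 for Ncoa6-KO and 0.283 for Ncoa6-sufficient libraries. Pairs of groups from different genotypes had 0.0418 to 0.193. Whether libraries with the same number came from the same mouse was not tested. With a replicate block, 7 members were called lower in Ncoa6-KO BMDMs in medium and 4 with LPS + MSU, and 4 were called for the difference in rise, or 6 with the block within genotype. For that difference the block called 86 of all genes, or 444 within genotype, against 0. Over all genes the block moved the calls between genotypes from 331 to 1023 in medium and from 632 to 1532 with LPS + MSU.

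Over all genes in medium, DESeq2 called 496, the fit without the filter 1152 and the fit without the first Ncoa6-sufficient library in medium 22. Summing the members into 1 feature, an alternative added after the data were seen, gave -0.64 in medium and -0.34 with LPS + MSU, and log2 rises of 3.57 and 3.87. The number of libraries in each group limits the precision, and the shared reads limit the level of single copies, by share of windows Ifi211 above all.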
